A study of Zea mays with 8 samples.

Results

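The maize loci fl3, fl1, o1 and o7, whose mutants give soft or opaque kernels, were followed in developing endosperm, the storage tissue of the kernel. They were taken by gene ID, as GRMZM2G006585 for fl3, GRMZM2G094532 for fl1, GRMZM2G449909 for o1 and GRMZM2G074759 for o7, and are 4 of 39423 genes in the files. The tissue was sampled 12 days after pollination from Zea mays kernels of the W22 background. One group was labelled ded1-ref, a mutation of ded1 (GRMZM2G121570), the gene of a MYB transcription factor active in endosperm. The other group held normal kernels, their siblings, with 4 pools in each group and each mutant pool paired with a pool of its own siblings. The labels give both endosperm and kernel as the tissue, and the extraction notes name endosperm.

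A normal maize kernel is hard and glassy because starch grains are packed among protein bodies, small deposits of zein storage protein that form inside the endoplasmic reticulum. Floury and opaque mutants lose this texture, many through mutated zein genes or through the transcription factors that switch zein genes on. The 4 loci act elsewhere. fl3 encodes a plant-specific zinc-binding protein of the PLATZ family that is known to interact with the RNA polymerase III machinery for transfer RNA and 5S ribosomal RNA, and it is known as an imprinted gene expressed from the maternal copy. fl1 encodes a membrane protein of the endoplasmic reticulum that is needed to place 22 kDa alpha zein within the protein body. o1 encodes a myosin XI motor that moves the endoplasmic reticulum along actin filaments, and o7 encodes an enzyme related to acyl-activating enzymes, known to affect storage protein synthesis.

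The 4 loci did not behave alike. fl3 was among the most abundant transcripts of normal endosperm and fell by a factor of 37.4 in TPM, a length-corrected share of the library, in the ded1-ref libraries, and by a factor of 20.9 after the libraries were scaled to each other. o7 was lower by a factor of 2.16 in TPM but did not pass after scaling. fl1 was close in TPM between the groups and higher by a factor of 1.51 after scaling. o1 stood near 1 TPM in both groups and passed no test.

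All 4 loci passed the filter for testing, at least 1 TPM in at least 4 libraries, and they are among 13671 genes so tested. Total recovered reads ran from 13924952 to 20725033 in the ded1-ref libraries and from 10536845 to 16246294 in the normal libraries. Because TPM are shares of a library, genes are not independent of each other on this scale, and the tested genes had a median log2 change of -0.68. The scaled test divides each library by its median ratio to the others, and the median change is then -0.0029. Every log2 change is given as ded1-ref over normal, and means are ± SD over 4 libraries. The words rose and fell are kept for genes that passed both tests at an adjusted p of 0.05. All 482 genes higher in TPM were also higher after scaling, and all 1445 genes lower after scaling were also lower in TPM. Rose thus amounts to passing the TPM test and fell to passing the scaled test. The ded1 transcript itself averaged 76.3 ± 16.3 TPM in ded1-ref and 39.4 ± 2.18 TPM in normal libraries. Whether the mutation changes the amount of ded1 mRNA is not in the labels, so the genotypes cannot be checked by it. Alpha zeins are the defining product of endosperm. Transcripts of the 21 genes with a z1A, z1B or z1C symbol filled much of every library. They summed to 360111 ± 17954 TPM in ded1-ref and 243891 ± 18914 TPM in normal endosperm (n = 4 each). Zein genes without such a symbol are not in this sum.

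fl3 had 64.3, 156, 338 and 153 TPM in ded1-ref replicates 1 to 4, against 4158, 6491, 6792 and 5734 TPM in normal replicates 1 to 4. The highest ded1-ref library was far below the lowest normal library, so the groups did not overlap, and each mutant pool was below its own sibling pool. The means were 178 ± 115 TPM in ded1-ref and 5794 ± 1178 TPM in normal endosperm (n = 4 each). In TPM the log2 change came to -5.23 ± 0.20 (SE; limma adjusted p = 2.9e-09). Scaling brought it to -4.38 ± 0.28 (SE; limma adjusted p = 2.9e-05). The scaled 95% interval ran from -5.03 to -3.74, a level in ded1-ref between 0.0307 and 0.0747 of the normal level. Between 1368 and 4901 reads lay behind each ded1-ref value and between 57210 and 101468 behind each normal value, so counting error is small beside the spread between pools.

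The place of fl3 among all genes shows the size of this fall. By TPM it ranked 696th, 302nd, 134th and 321st among all genes of ded1-ref replicates 1 to 4, against 28th, 22nd, 20th and 23rd in normal replicates 1 to 4. Its log2 change was the 5th lowest of all 13671 tested genes in TPM and the 6th lowest after scaling. Only 10 genes were lower by more than 4 scaled log2 units. These places hold for log2(value + 1), where the added 1 shrinks the change of a gene that ends near or below 1 TPM. The fall of an abundant gene such as fl3 is hardly shrunk. The gene tcrr-1, at 0.202 TPM in ded1-ref and 16.2 TPM in normal endosperm, was placed 20th lowest in TPM.

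The remaining fl3 message varied more among ded1-ref pools than the full level did among normal pools. The highest library was 5.25 times the lowest in ded1-ref and 1.63 times the lowest in normal endosperm. Set against its own sibling pool, fl3 was lower by a factor of 64.6, 41.5, 20.1 and 37.4 in pairs 1 to 4. Pair 3 thus kept the most fl3 message and pair 1 the least. As a multiple of the median tested gene of its library, fl3 stood at 15.2, 27.3, 91.1 and 33.4 in ded1-ref replicates 1 to 4 and at 563, 767, 828 and 732 in normal replicates 1 to 4. Without replicate 3 the scaled log2 change of fl3 was -4.79. In bulk tissue, fewer cells that express a gene and less of its RNA per cell cannot be told apart.

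**Figure D1:**
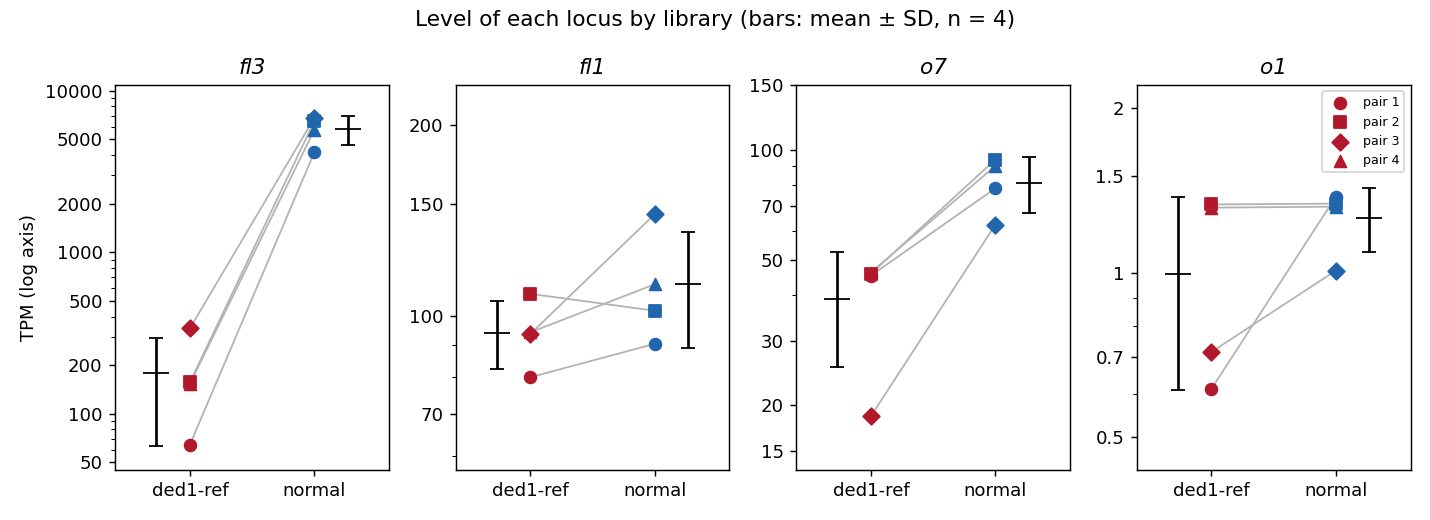
TPM (log axis) of fl3, fl1, o7 and o1 in each library, ded1-ref on the left and normal on the right of each panel; grey lines join the pools of a pair, marker shapes give the pair, and black bars are the mean ± SD of 4 libraries. fl3 lies between 64.3 and 338 TPM in ded1-ref and between 4158 and 6792 TPM in normal endosperm, o7 is separated by less, and fl1 and o1 overlap between the groups.

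o7, the acyl-activating enzyme relative, had 45.2, 45.8, 18.7 and 46.1 TPM in ded1-ref replicates 1 to 4, against 78.3, 93.9, 62.3 and 90.2 TPM in normal replicates 1 to 4. Between 503 and 1788 reads in ded1-ref and between 1649 and 2004 reads in normal libraries lay behind these values. The groups did not overlap in TPM, and both libraries of pair 3 were the lowest of their group. The means were 38.9 ± 13.5 TPM in ded1-ref and 81.2 ± 14.2 TPM in normal endosperm (n = 4 each). On the TPM scale the log2 change was -1.11 ± 0.16 (SE; limma adjusted p = 1.3e-04), lower in 4 of 4 pairs. In the scaled test it was -0.29 ± 0.14 with a 95% interval from -0.61 to 0.03 (limma adjusted p = 0.184). As a multiple of the median tested gene, o7 stood at 10.7, 8.00, 5.03 and 10.1 in ded1-ref replicates 1 to 4, within reach of the 10.6, 11.1, 7.59 and 11.5 of normal replicates 1 to 4. The scaled interval holds no change as well as a level down to 0.657 of normal. o7 thus passed as lower only as a share of the library, a scale on which 69.8% of all tested genes passed as lower.

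fl1, the zein-placing membrane protein, had 80.0, 108, 93.6 and 94.2 TPM in ded1-ref replicates 1 to 4, against 90.3, 102, 145 and 112 TPM in normal replicates 1 to 4. The groups overlapped, and pair 2 ran the other way from the other pairs. The means were 94.0 ± 11.6 TPM in ded1-ref and 112 ± 23.4 TPM in normal endosperm (n = 4 each), with a log2 change of -0.24 ± 0.14 (SE) that did not pass (limma adjusted p = 0.145). Relative to the median tested gene the picture was reversed. fl1 then stood at 18.9, 18.9, 25.2 and 20.5 times the median gene in ded1-ref replicates 1 to 4 and at 12.2, 12.0, 17.6 and 14.3 times in normal replicates 1 to 4. These multiples did not overlap and were higher in 4 of 4 pairs (exact two-sided permutation p = 0.0286, the smallest 4 against 4 allows). This comparison was added after the data were seen, and its p is not adjusted over genes. How many of all tested genes are separated in this way was not counted. The multiples and the scaled test below rest on similar scaling and are not separate support. The scaled test gave a log2 change of 0.59 ± 0.12 (SE; limma adjusted p = 0.0068), and its 95% interval ran from 0.33 to 0.86. The direction for fl1 thus rests on the scale.

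o1, the myosin XI motor, was the faintest of the 4 loci. It had 0.613, 1.33, 0.716 and 1.31 TPM in ded1-ref replicates 1 to 4, against 1.38, 1.34, 1.01 and 1.32 TPM in normal replicates 1 to 4. Pairs 2 and 4 were nearly level, while pairs 1 and 3 were lower in ded1-ref, and the groups overlapped. Only 51 to 114 reads in ded1-ref and 62 to 93 reads in normal libraries lay behind these values. The TPM test gave a log2 change of -0.20 ± 0.18 (SE; limma adjusted p = 0.331). After scaling it was 0.22 ± 0.17 (SE; limma adjusted p = 0.380). Its scaled 95% interval ran from -0.15 to 0.60 on the log2(value + 1) scale, which shrinks changes at such levels. As a multiple of the median tested gene, with no added value, o1 differed by 0.40 log2 units (exact two-sided permutation p = 0.171). Of 3 transcript rows listed for o1, 1 was above 0 in any library. The other loci have 1 row each, so no locus offered transcript forms to compare.

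**Figure D2:**
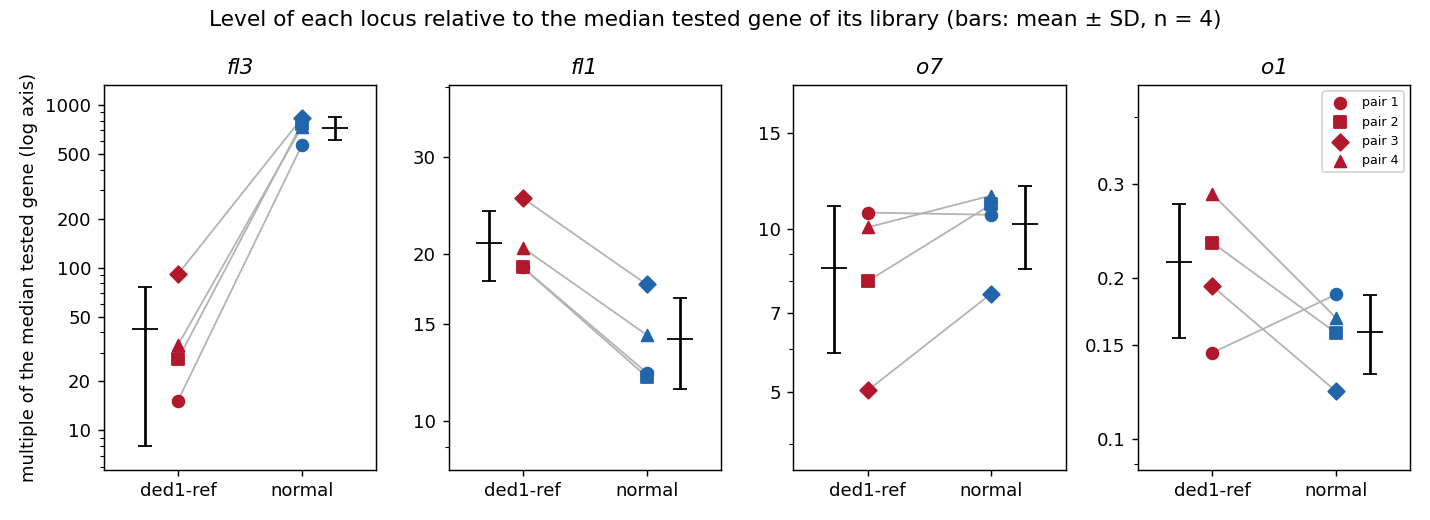
Level of each locus divided by the median TPM of the tested genes in the same library (log axis), ded1-ref left and normal right; lines join pairs and bars are the mean ± SD of 4 libraries. fl3 stays far below normal, the 4 fl1 values in ded1-ref (18.9 to 25.2) all lie above the normal ones (12.0 to 17.6), and o7 and o1 overlap.

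Of the 4 loci, fl3 alone was lower in both tests, against 10.6% of all tested genes, and none was higher in both, against 3.53%. On the TPM scale 2 of 4 were lower, less than the 69.8% of all genes, and none was higher, against 3.53%. In the scaled test 1 of 4 was lower and 1 of 4 higher, against 10.6% and 12.3% of all genes. With 4 loci these shares describe single genes and not a group. The authors' deposited table gives log2 folds of -3.28 for fl3 (adjusted p = 1.83e-09), 0.58 for fl1 (adjusted p = 0.0183), 0.43 for o1 (adjusted p = 0.295) and -0.24 for o7 (adjusted p = 0.617). There, 6.75% of the rows with an adjusted p were lower at 0.05 and 7.95% higher. The signs there match those of the scaled test for all 4 loci, and the fold of fl3 is smaller than in either test.

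**Figure D3:**
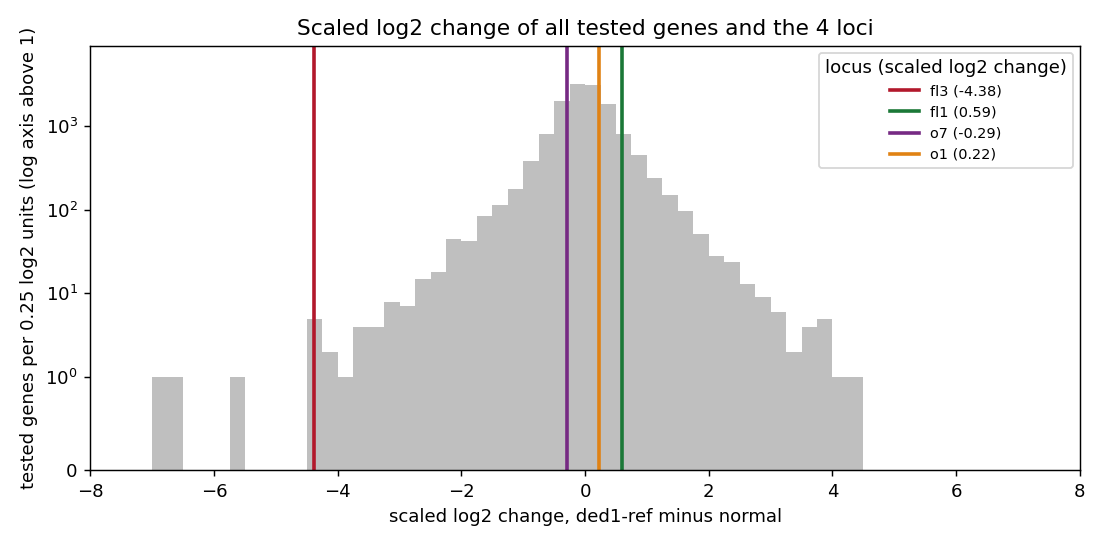
Histogram of the scaled log2 change (ded1-ref minus normal) of the 13671 tested genes in steps of 0.25, with the count on a log axis above 1 and a vertical line for each locus. fl3 at -4.38 lies in the extreme lower tail, and o7 at -0.29, o1 at 0.22 and fl1 at 0.59 lie within the main body.

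TPM is a level per length, so the loci can also be ordered within a library. In normal endosperm the order was fl3, fl1, o7 and o1 in 4 of 4 libraries, although the ranges of fl1 and o7 overlapped across libraries. In ded1-ref endosperm fl1 and fl3 overlapped, with fl3 above fl1 in 3 of 4 libraries, and fl1 and o7 no longer did.

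Ratios between loci within a library do not depend on its scaling, and the 6 possible pairs were compared. fl3 held 0.804, 1.44, 3.61 and 1.63 times the TPM of fl1 in ded1-ref replicates 1 to 4, against 46.0, 63.7, 46.9 and 51.1 times in normal replicates 1 to 4. This ratio differed by -4.99 ± 0.46 log2 units (SE), that of fl3 to o7 by -4.10 ± 0.80 and that of fl3 to o1 by -4.82 ± 0.57. None of these 3 ratios overlapped between groups, and each was lower in 4 of 4 pairs. Each had an exact two-sided permutation p of 0.0286, the smallest this design allows, and 0.0571 after Benjamini-Hochberg adjustment over the 6 ratios, which misses 0.05.

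The other loci were not separated from each other. fl1 stood at 1.77, 2.37, 5.02 and 2.04 times o7 in ded1-ref replicates 1 to 4 and at 1.15, 1.08, 2.32 and 1.24 times in normal replicates 1 to 4. This ratio was higher in 4 of 4 pairs, but the groups overlapped through normal replicate 3 (difference 0.89 ± 0.42 log2 units, SE; exact permutation p = 0.0857, adjusted p = 0.129). The ratio of o1 to o7 differed by 0.72 ± 0.33 (exact permutation p = 0.143, adjusted p = 0.171) and that of fl1 to o1 by 0.18 ± 0.33 (exact permutation p = 0.743, adjusted p = 0.743).

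**Figure D4:**
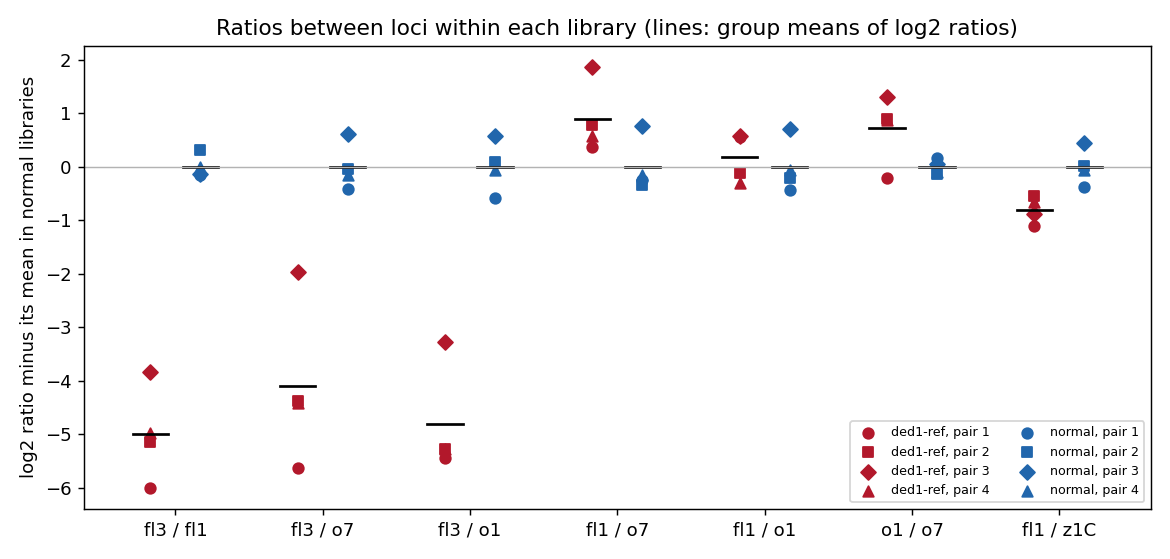
Log2 ratio between loci within each library, minus the mean log2 ratio of the 4 normal libraries, with ded1-ref left and normal right for each ratio and marker shapes for pairs; z1C is the summed TPM of the 22 kDa alpha zein genes matched by symbol. The 3 ratios with fl3 on top lie below every normal library, and ded1-ref replicate 3 lies nearest to them.

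Relative to the zeins it is known to place, the transcript of fl1 was lower in ded1-ref than in normal endosperm. The z1C class holds the 22 kDa alpha zeins, and only the 11 genes with a z1C symbol were counted. These summed to 190145 ± 13131 TPM in ded1-ref and 129111 ± 9576 TPM in normal endosperm (n = 4 each). For every 1000 TPM of z1C there were 0.398, 0.587, 0.466 and 0.540 TPM of fl1 in ded1-ref replicates 1 to 4, against 0.660, 0.863, 1.17 and 0.817 TPM in normal replicates 1 to 4. The highest ded1-ref value lay below the lowest normal one, and the ratio was lower in 4 of 4 pairs. The difference was -0.80 ± 0.21 log2 units (SE; exact two-sided permutation p = 0.0286, the smallest possible). A lower ratio to z1C is not particular to fl1. The z1C genes had a median scaled log2 change of 1.35, against 0.59 for fl1 and -0.0029 over all tested genes. Of all tested genes, 89.1% had a lower scaled change than fl1.

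Other floury and opaque loci were read for comparison: 9 were matched by symbol and 8 tested. fl2 and fl4 rose, against 3.53% of all tested genes, and both are alpha zein genes themselves, so reads shared with similar zein genes could affect their single values. fl2 averaged 55738 ± 3589 TPM in ded1-ref and 37326 ± 2989 TPM in normal endosperm, and fl4 averaged 23005 ± 1855 and 18081 ± 1642 TPM in the same order (n = 4 each). None of the 8 fell, against 10.6% of all tested genes, and 4 passed as lower on the TPM scale alone, where 69.8% of all genes passed as lower. The regulators o2 and PBF, which switch on zein genes, stood at 0.17 and 0.18 scaled log2 units, and MADS47 at -0.39. nkd1, an aleurone and endosperm regulator, stood at -0.68 (limma adjusted p = 0.131). o11, a regulator of endosperm development, stood at 0.41 (limma adjusted p = 0.0901). o10, a protein that sets the place of zeins in the protein body, averaged 5.70 ± 2.16 TPM in ded1-ref and 7.91 ± 3.61 TPM in normal endosperm, with a scaled log2 change of 0.35 (limma adjusted p = 0.190). nkd2 was too low for a test, at means of 0.224 and 0.682 TPM. Their 8 log2 changes had a median of -0.54 in TPM and 0.26 after scaling, beside -0.68 and -0.0029 over all tested genes.

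Motor and track genes related to o1 were read next. Of 7 gene IDs named as myosin, 5 were tested, all 5 were lower on the TPM scale, where 69.8% of all genes were lower, and none passed in the scaled test, with a scaled median of -0.17. Their scaled changes ran from -0.52 to -0.07, and the IDs named myosin2 and Myosin-6 are pairs of models under 1 gene entry each. The most abundant, a Myosin-6 model (GRMZM2G364851), averaged 6.92 ± 1.94 TPM in ded1-ref and 12.8 ± 1.43 TPM in normal endosperm. A myosin2 model (GRMZM2G332687), with the lowest scaled change, averaged 3.93 ± 1.92 TPM in ded1-ref and 9.84 ± 0.873 TPM in normal endosperm. Of 7 actin genes, which encode the filament myosins walk on, 4 were tested, each of them lower in TPM, and 1 fell, against 10.6% of all tested genes. This was Maz95, at 55.6 ± 7.45 TPM in ded1-ref and 163 ± 9.21 TPM in normal endosperm (scaled log2 change -0.71, limma adjusted p = 0.00306). The most abundant actin gene, an Actin-7 (GRMZM2G082484), averaged 210.4 ± 37.2 and 265 ± 8.00 TPM in the same order, with a scaled log2 change of 0.49 that did not pass (limma adjusted p = 0.0748). TFIIIA, a factor for 5S ribosomal RNA genes and the 1 matched gene of the RNA polymerase III system in which FL3 acts, averaged 1.36 ± 0.389 TPM in ded1-ref and 3.07 ± 1.27 TPM in normal endosperm. Its scaled log2 change was -0.19 (limma adjusted p = 0.524).

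**Figure D5:**
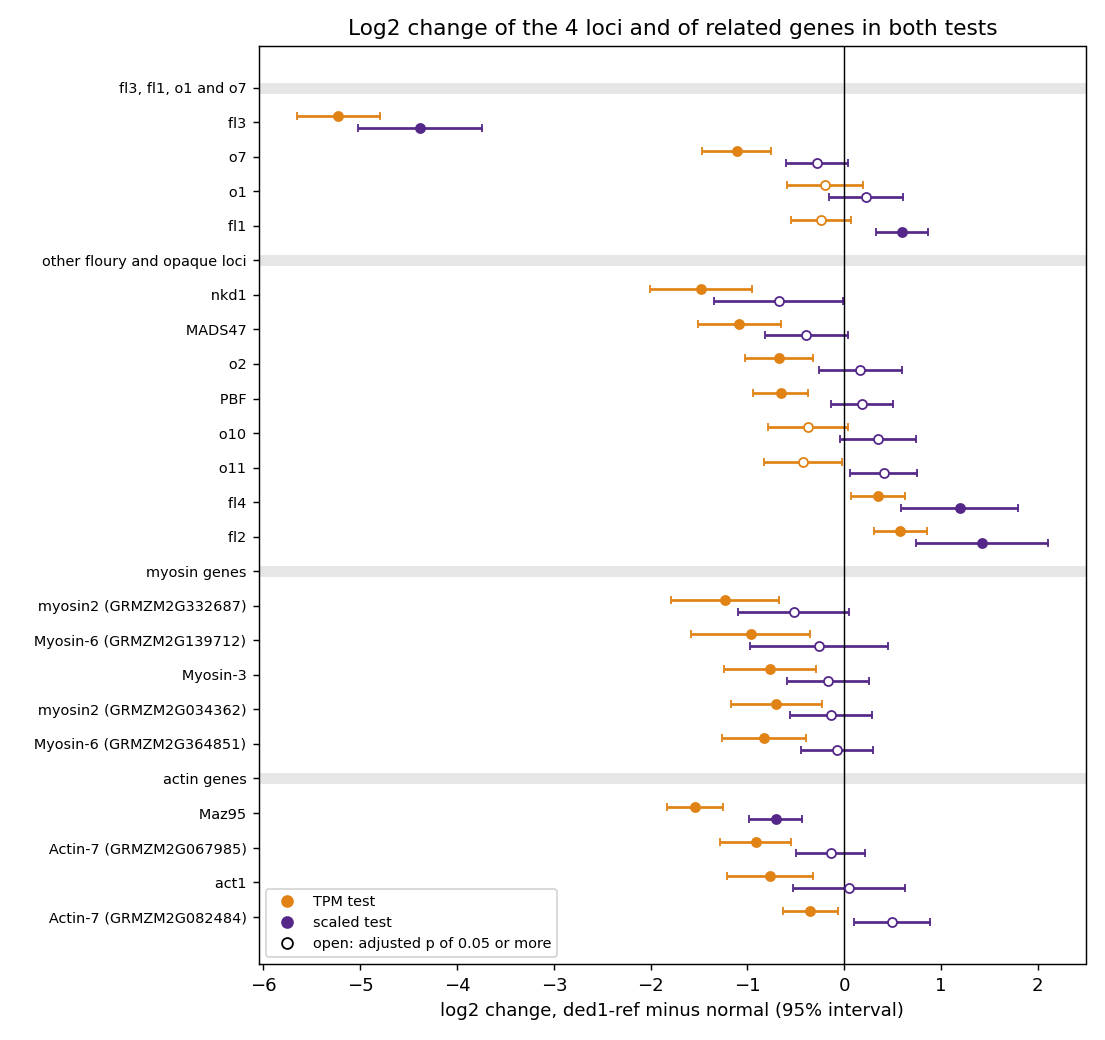
Log2 change (ded1-ref minus normal) with its 95% interval for fl3, fl1, o1 and o7 and for other floury and opaque loci, myosin genes and actin genes, in the TPM test and the scaled test; filled points passed at an adjusted p of 0.05. fl3 lies far to the left of every other gene drawn, and only fl3 and Maz95 are filled on the lower side in both tests.

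Genes with the profile nearest to each locus were sought over the 8 libraries, by the root mean square difference of centred log2(TPM + 1). Because the libraries share the same scale and groups, likeness here mostly reflects the same size of difference between groups. For fl3 the nearest genes with an informative name were sfp5, at 0.72 log2 units and 3rd among all tested genes, tcrr-1, a response regulator of transfer cells, at 1.01, and ZCN11, of the family that includes flowering signals, at 1.06. None of these came near it in abundance: sfp5 averaged 1.15 ± 0.460 TPM in ded1-ref and 39.9 ± 7.40 TPM in normal endosperm. For fl1 the nearest were srp30, CesA-2, a cellulose synthase gene, and cdpk*-D84508, at 0.12 to 0.15. For o1 they were CKX4, a cytokinin oxidase gene, rbohC and CK2, at 0.09 to 0.11, and for o7 PYL2, an abscisic acid receptor gene, and MURE, at 0.19 and 0.20.

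Markers of other kernel cells also differed between the groups. Of 10 basal transfer layer genes 6 were tested and all 6 fell, against 10.6% of all tested genes. Their summed level ran from 151 to 292 TPM in ded1-ref and from 490 to 1221 TPM in normal libraries, and betl1 was listed at 0 in all 8. As a multiple of the median tested gene this sum was 35.7, 29.9, 78.8 and 34.9 in ded1-ref replicates 1 to 4 and 106, 121, 149 and 62.5 in normal replicates 1 to 4. The ded1-ref library with the most fl3, replicate 3, was also the one with the most of these markers. Both multiples are divided by its median tested gene, which at 3.71 TPM was the lowest of the 8 libraries. In plain TPM replicate 3 was also the highest ded1-ref library for both, at 338 TPM of fl3 and 292 TPM of the markers. The other ded1-ref libraries did not share an order. In replicates 1, 2 and 4 fl3 stood at 15.2, 27.3 and 33.4 times the median gene, and these markers at 35.7, 29.9 and 34.9 times. Of 11 embryo genes 4 were tested, 1 rose (MGL3), against 3.53% of all tested genes, and 3 were higher in the scaled test, against 12.3%. The embryo sum ran from 243 to 460 TPM in ded1-ref and from 298 to 528 TPM in normal libraries, and wus1 and wox5B were listed at 0 throughout. As a multiple of the median tested gene it ran from 65.4 to 109 in ded1-ref and from 38.0 to 64.3 in normal libraries, without overlap. Most of this embryo sum was 1 gene, ole1, at 325 ± 84.0 TPM in ded1-ref and 385 ± 105 TPM in normal libraries. In TPM ole1 did not pass (limma adjusted p = 0.253), and its scaled log2 change was 0.60 (limma adjusted p = 0.0306). Of 5 aleurone genes, all tested, 3 rose, against 3.53% of all tested genes. They are the anthocyanin pigment genes a2, bronze-2 and c1, while dek1 had log2 changes of -0.82 in TPM (limma adjusted p = 0.0089) and -0.06 after scaling, and cr4 had -0.46 and 0.21, neither of which passed. The aleurone sum ran from 13.5 to 39.3 TPM in ded1-ref and from 19.8 to 25.3 TPM in normal libraries. As a multiple of the median tested gene it ran from 3.63 to 9.31 in ded1-ref and from 2.55 to 3.08 in normal libraries, without overlap. Its members did not move together. In mean TPM the 3 pigment genes were higher in ded1-ref (a2 at 8.08 against 0.0783), and dek1 and cr4 were lower (dek1 at 7.88 against 13.7). The 1 gene listed for maternal tissue, m6, ran from 0.354 to 1.30 TPM in ded1-ref and from 0.432 to 3.87 TPM in normal libraries. The part of these markers in the changes of the 4 loci was not tested.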

How the data were processed

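Per the labels, total RNA of endosperm was made into unstranded libraries, so overlapping and antisense genes share reads. The tools named, per the submitters' processing notes, are GSNAP, Trimmomatic 0.22 and cutadapt 1.1. For the genome build and the counting of reads, the sources used here give nothing. The authors deposited TPM for 63293 transcript rows in 8 libraries and a table of their comparison. Per the file headers, that table holds a mean normalized signal, a log2 fold with its standard error, a test score and p-values. Its score has the opposite sign of its fold in 38727 of 38727 rows, so directions were taken from the fold's header and the TPM.

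From the deposited TPM and mean signal, reads were recovered, and 100% of 236228 values above 0 came within 0.05 reads of a whole number. Rows were summed to genes. The main test was limma 3.58.1 (R 4.3.3) with a mean-variance trend on log2(TPM + 1), the pair as a block, and Benjamini-Hochberg adjustment over 13671 genes. The scaled test used TPM divided by median-of-ratios factors. For genes near 1 TPM, such as o1, or near it in 1 group only, the added 1 shrinks a log2 change. Pairing follows the design text, and the sample titles of a pair share a prefix. Deviations from the group means correlated at 0.115, 0.333, 0.309 and 0.149 in pairs 1 to 4. Ratios were compared by exact permutation tests (scipy 1.17.1). The TPM fit alone was run on simulated data, with no pair effect and most genes unchanged. That run does not bear on the scaled test.

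Gene names alone were read from RefSeq (assembly Zm-B73-REFERENCE-NAM-5.0), whose table matched 18771 of 39423 genes. More than 1 gene carries the alias fl1, so loci were taken by ID; PRO1 (a profilin gene) and acs6 and acs7 were left out because the symbol means another protein. Genes named are the 4 loci, all matched floury and opaque loci, up to 3 of the most abundant genes of each related list and the 3 nearest named profiles of each locus, of which 1 for o7 is not reported here. Families by protein sequence were not built. Other RNA polymerase III factors, tRNA synthetases, acyl-CoA synthetases, o5, o6, De-B30, Mc1, bZIP22, NAC128 and NAC130 gave no match by symbol and are not analysed here. The loci and lists were chosen with earlier results of these data known. The p-values measure the spread between pools of kernels, which the design calls biological replicates.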

Additional observations from a re-analysis of the deposited data

Results flagged for a closer look

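A total of 3 values stood apart within their group of 4 libraries, by a gap to the nearest library that exceeded Dixon's 95% critical share of the group's range. Chance gives such a gap in about 5% of groups. Ratios between loci were screened as well and reuse the TPM of the loci, so the groups screened are not independent. o7 was at 18.7 TPM in ded1-ref replicate 3, against 45.2 to 46.1 TPM in the other ded1-ref libraries. o1 was at 1.01 TPM in normal replicate 3, against 1.32 to 1.38 TPM in the other normal libraries. The log2 ratio of fl3 to o1 was 8.88 in ded1-ref replicate 3, a ratio of 472, against ratios of 105 to 117 in the other ded1-ref libraries. All 3 values belong to pair 3. Without that pair the log2 change of o7 was -0.92 on the TPM scale (limma adjusted p = 7.4e-04).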

How the results depend on the processing

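For fl3, 12 planned settings gave log2 changes from -5.53 to -4.38 and 6 added in the scaled test gave -4.79 to -4.14, all past the threshold. The settings in the scaled test were chosen after seeing the data, as were the exact tests on multiples of the median tested gene. Scaling by median of ratios, by upper quartile, and limma-voom on recovered reads turned the direction of fl1 to 0.59, 0.50 and 0.60 and that of o1 to 0.22, 0.18 and 0.42, and left o7 at -0.29, -0.38 and -0.29, no longer past the threshold (limma adjusted p = 0.184, 0.0752 and 0.169). Those of fl1 passed and those of o1 did not. Over all genes, the TPM test called 482 higher and 9539 lower, the scaled test 1688 and 1445, limma-voom 1829 and 1417, and upper-quartile scaling 1405 and 1846. TPM recomputed without the zein genes matched by symbol gave 618 and 7359. Any zein gene without such a symbol stayed in.

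Without the replicate block no call of the 4 loci changed in either test (adjusted p of fl1 in the scaled test 0.0268). With the replicate block, by signs of the 4 pairs, the exact p cannot fall below 0.125, and the fl1 to z1C difference of -0.80 stood there. Leaving out 1 pair, which allows no exact p below 0.1, gave -0.88 to -0.63 for that difference and -0.0957 to 0.32 for fl1 to o1, whose sign turned without replicate 1. With a pseudocount of 1, fl1 to o1 was -0.0416, and the ratios of fl3 to fl1, o1 and o7 and of o1 to o7 stood at -4.99, -5.03, -4.11 and 0.91, past the threshold (adjusted exact permutation p = 0.0429). The exact permutation p of the 3 fl3 ratios was 0.0286, the smallest possible, in both settings. Their adjusted p moved because o1 to o7 also reached 0.0286, not because the fl3 ratios grew clearer. Shares of transcript rows gave no value because 1 row per locus was above 0. Depth limits o1 most, at 51 to 114 reads.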
